A study of Mus musculus with 6 samples.

Results

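Outer hair cells, the electromotile sensory cells that amplify sound in the cochlea, were sorted at E18.5, late in gestation, from Insm1-Het and Insm1-KO mice, and 1 of the 6 RNA libraries, Insm1-KO replicate 3, stood apart from the others. The genes described here are the 150 that were highest in that library. They were chosen by their counts: counts were divided by the library total and multiplied by 1000000 to give CPM, genes with a mean of at least 100 CPM over the 6 libraries were kept, and the log2(CPM + 1) in Insm1-KO replicate 3 was compared with the mean of the other 5 libraries. Of 23337 gene symbols, 2513 were kept, and the 150 with the largest positive difference, called the deviation below, are the members. The deviation is therefore a description of how the members were picked and no test was made of it.

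Both genotypes were purified as Insm1-GFP-Cre positive cells, with 3 libraries from Insm1-Het and 3 from Insm1-KO cochleae. How the KO allele was made, and whether a library holds 1 animal or a pool, is not given in the labels, so p-values below measure only a spread between libraries that may be technical. INSM1 is a zinc-finger transcription factor present for a short time in newly formed outer hair cells, and the study asks whether cells without it turn toward the inner hair cell type. Outer hair cells sit beside supporting cells, which share their progenitors and are held apart from hair cells by Notch signalling. Hair cells release glutamate through ribbon synapses, whose scaffolds and calcium channels belong to the same families as those of neurons.

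Insm1 itself measured 114, 116 and 70.5 CPM in Insm1-Het replicates 1, 2 and 3 and 79.6, 60.0 and 17.2 CPM in Insm1-KO replicates 1, 2 and 3, so the library studied here had the lowest level, and Insm1-KO replicate 1 lay above Insm1-Het replicate 3. Since the deleted part of the gene is not stated, these counts cannot check the labels. Its total of 9748629 counts lay inside the range of the other 5 libraries, 7705177 to 12427039. It detected 12126 genes, fewer than the 12640 to 13763 of the others. Hair cell genes were present: Myo6, an unconventional myosin, was at 4769 CPM against 4905 to 5304 CPM in the others, and Slc26a5, the motor protein prestin, at 42.8 CPM against 17.8 to 55.1 CPM. Bcl11b, an outer hair cell transcription factor, was at 119 CPM against 122 to 158 CPM. Slc17a8, the glutamate transporter of inner hair cells, had 0 counts there and at most 1.94 CPM elsewhere. Other hair cell genes were further from the rest: Pou4f3, a hair cell transcription factor, was lowest there at 142 CPM against 150.3 to 279.9 CPM, and Ikzf2, an outer hair cell factor, highest at 68 CPM against 5.97 to 44.6 CPM. The 42 genes of a general hair cell list summed to 22883 CPM, inside the range of 21592 to 23678 CPM elsewhere.

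Over the 2513 kept genes, the SD of the deviation was 0.69 for Insm1-KO replicate 3, while the same calculation gave 0.35 to 0.42 for each other library against its own 5 counterparts. In that library 148 genes were at least 1 log2 unit above the mean of the rest and 192 at least 1 below. The other libraries had 8 to 27 genes above and 17 to 37 below. The 150th largest deviation was 0.9988 in Insm1-KO replicate 3 and 0.54 to 0.61 in the others. The wider spread in Insm1-KO replicate 3 thus went both up and down.

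**Figure D1:**
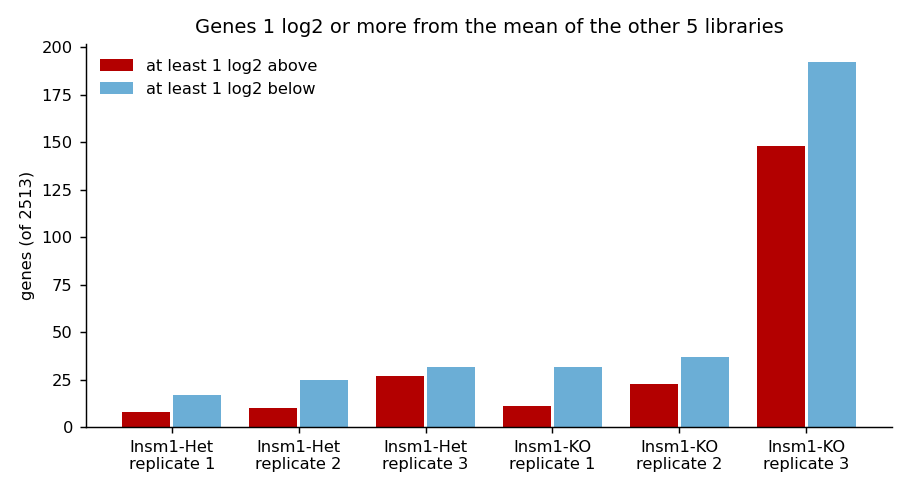
Number of genes, of 2513 with a mean of at least 100 CPM, that lay 1 log2 unit or more above (red) or below (blue) the mean of the other 5 libraries, for each library on the x axis. Insm1-KO replicate 3 had 148 genes above and 192 below, and no other library had more than 27 above or 37 below.

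Sequence composition was a property that the choice of members did not use. Each gene was represented by its longest transcript in GENCODE M21 on GRCm38, a protein-coding one where it had any. A transcript was found for all 150 members, 149 of them with a coding sequence, and for 2496 of the 2513 kept genes, 2487 of them with a coding sequence. The 4 coding starts printed here, 90 bases from the start codon, are from the 25 members with the largest deviation and show both ends of the range: Bahcc1 and Socs7 are among the 3 with the most G and C in the coding sequence, and Trpm7 and Ppp2r2a are the 2 with the least. Bahcc1, a chromatin protein, lies at chr11:120232947-120292296 on the plus strand. Socs7, an adaptor that ends cytokine signalling, lies at chr11:97362551-97398542 on the plus strand. Trpm7, a cation channel fused to a kinase, lies at chr2:126791565-126876230 on the minus strand, and Ppp2r2a, a regulatory subunit of the phosphatase PP2A, at chr14:67014056-67072444 on the minus strand. Capitals mark G and C.
Bahcc1: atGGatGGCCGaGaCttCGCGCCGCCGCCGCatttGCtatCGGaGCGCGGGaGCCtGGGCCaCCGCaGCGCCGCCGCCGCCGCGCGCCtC
Socs7: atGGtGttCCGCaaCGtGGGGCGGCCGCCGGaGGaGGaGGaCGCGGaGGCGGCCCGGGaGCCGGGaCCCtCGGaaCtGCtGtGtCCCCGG
Trpm7: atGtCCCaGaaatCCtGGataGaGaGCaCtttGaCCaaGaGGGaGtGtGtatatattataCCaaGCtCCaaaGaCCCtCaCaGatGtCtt
Ppp2r2a: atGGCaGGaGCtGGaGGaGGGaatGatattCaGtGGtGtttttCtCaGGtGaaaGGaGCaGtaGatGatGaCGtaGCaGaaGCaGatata

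Members were richer in G and C than the genes they were drawn from. The stretches printed above hold 76.7% G or C in Bahcc1, 75.6% in Socs7, 43.3% in Trpm7 and 45.6% in Ppp2r2a. Over whole transcripts the members had a median of 51.1% (quartiles 46.9% and 55.4%), against 48.2% (44.2% and 52.7%) over all kept genes. The coding sequence gave 53.7% against 51.0%, and the 3′ untranslated part 46.7% against 42.4%. When the kept genes were split into 5 equal groups by transcript GC content, the group with the least G and C held 11 members among 500 genes (2.20%) and the group with the most held 49 among 499 (9.82%). The share went up at each step between, from 4.41% to 6.61% and 7.01%. Among the members with the highest GC content was Atn1, a nuclear corepressor, at 62.0%. Not all were of this kind, since Bche, butyrylcholinesterase, had 38.3% and Slitrk6, a membrane protein that guides inner ear innervation, 39.6%. Atn1, Bche and Slitrk6 were picked here for these values.

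The same 5 groups by GC content were also compared by the deviation of all their kept genes. The members are among these genes, and the medians were not computed without them. In Insm1-KO replicate 3 the median deviation was -0.19 in the group with the least G and C and 0.12 in the group with the most, around a median of -0.02 over all kept genes. Insm1-KO replicate 2 ran the same way, from -0.04 to 0.11. Insm1-Het replicates 2 and 3 ran the other way, from 0.09 to -0.06 and from 0.11 to -0.07. Insm1-Het replicate 1 and Insm1-KO replicate 1 moved least, from 0.04 to 0.00 and from 0.04 to -0.02. These 6 series share their libraries, since each is set against the other 5. The 150 highest genes of each other library were also chosen in the same way. The group with the most G and C then held 48 of them for Insm1-KO replicate 2 and 41 for Insm1-Het replicate 1. For the remaining libraries it held 19 to 30. The group with the least held 23 to 39, against 11 for Insm1-KO replicate 3. Their median GC content was 46.5% to 49.8%, against 51.1% for the members. With TMM scaling, which corrects for composition, all deviations in Insm1-KO replicate 3 moved up so that their median was 0.12, and the 5 groups from least to most G and C were at -0.05, 0.07, 0.12, 0.20 and 0.25. The second and the middle group, at -0.07 and -0.01 by library total, thus turned positive, and the order of the groups was the same. The part of GC content in the members' levels was not tested.

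**Figure D2:**
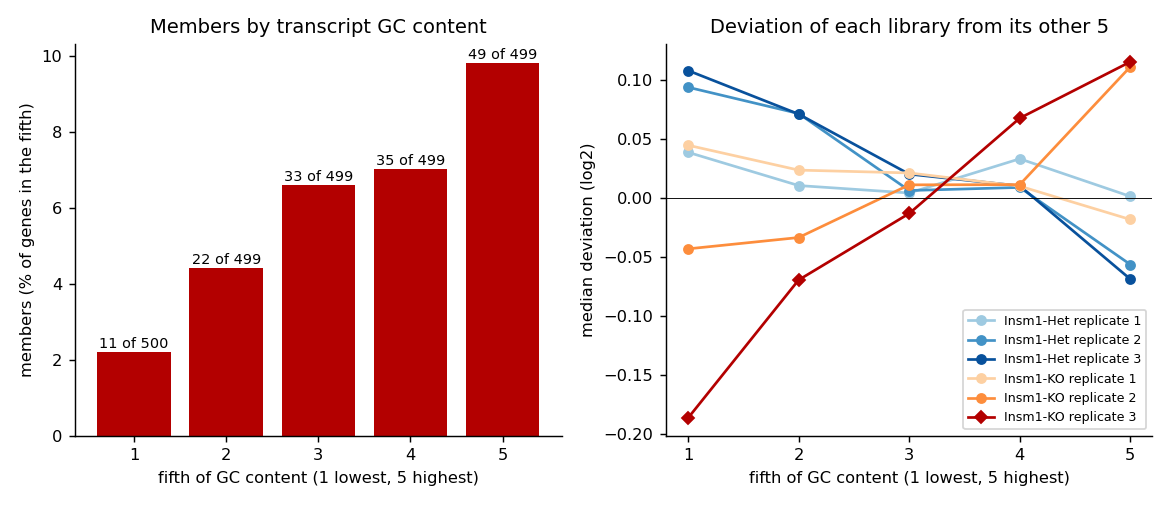
Left, members as a percentage of the kept genes in each of 5 equal groups by transcript GC content, with counts above the bars: 11 of 500 in the lowest group and 49 of 499 in the highest. Right, median deviation (log2) of each library from its other 5 in the same groups; Insm1-KO replicate 3 (red diamonds) goes from -0.19 to 0.12.

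Length and position were compared in the same way. The median transcript was 4739 bases long in members and 4632 bases over all kept genes, with 13 against 12 exons, and the coding part 2217 against 1845 bases. Of 5 equal groups by transcript length, the shortest, up to 2734 bases, held 16 of 500 genes as members (3.20%), and the others 6.01% to 8.02%. By annotation 149 members were protein-coding and 1, C230091D08Rik, a name that RefSeq gives to Snhg14, was a processed transcript. Members lay on all 19 autosomes and the X chromosome, where they made up 3.88% to 8.43% of the kept genes. For 115 members RefSeq gives a promoter on GRCm38.p6, from 250 bases before to 50 after the start, and the median GC content of these was 63.0% against 64.3% over 1997 kept genes. The GC box, GGGCGG on either strand, was found in 67.8% of the members' promoters, 71.1% of those of kept genes and 35.7% of all promoters in the table. The shares for TATAAA were 6.96%, 6.86% and 13.6%, for CCAAT 35.7%, 37.3% and 37.4%, and for CACGTG 12.2%, 11% and 7.15%. The members' transcripts, but not their promoters, thus had a higher median GC content than those of the kept genes.

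The member with the largest deviation was Mark2, a kinase that phosphorylates microtubule-associated proteins and sets cell polarity, at chr19:7275396-7341860. It measured 106, 185 and 215 CPM in the Insm1-Het replicates, 136 and 101 CPM in Insm1-KO replicates 1 and 2, and 1037 CPM in replicate 3. Insm1-KO replicate 3 was thus 4.83 times the next highest library, and the other Insm1-KO libraries lay within or below the Het range. Dpp6, an auxiliary subunit of A-type potassium channels (chr5:26817203-27727505), was at 84.5, 42.2 and 75.2 CPM in Het, 50.4 and 49.7 CPM in Insm1-KO replicates 1 and 2, and 362 CPM in replicate 3. Tcf7l2, a transcription factor of canonical Wnt signalling (chr19:55741820-55933654), was at 70.4, 53.4 and 55.9 CPM, then 126 and 52.6 CPM, and 302 CPM in replicate 3. Here Insm1-KO replicate 1 also lay above every Het library.

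Agpat1, an acyltransferase of phospholipid synthesis (chr17:34604262-34613449), was the steadiest of the first 5 elsewhere: 75.4, 57.1 and 70.0 CPM in Het, 62.7 and 66.1 CPM in Insm1-KO replicates 1 and 2, and 289 CPM in replicate 3. Phf12, a PHD-finger corepressor, varied most among them, with 65.1, 53.3 and 79.7 CPM in Het and 24.8, 123 and 256 CPM in the Insm1-KO replicates. Both genes share exon sequence with a neighbour on the opposite strand, Egfl8 for Agpat1 and Dhrs13os for Phf12, so reads of the pairs cannot be told apart without a stated strand setting. Across all members, exons of 50 overlap those of another gene, among them Bsn, Cacnb2, Notch1, Fgfr1 and Tmod1. For Bsn the other gene is a microRNA on the same strand. Overlaps were not counted for the other kept genes, so this number has no background.

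The 25 members with the largest deviation ran from 2.86 down to 1.58 log2 units and included enzymes, adaptors and regulators of many kinds. Among them were B4galt4, a galactosyltransferase, at 50.3 to 127 CPM in the other 5 libraries and 270.3 CPM in Insm1-KO replicate 3, and Pcbp3, an RNA-binding protein, at 59.4 to 139.7 CPM and 320.1 CPM. Trpm7 was at 87.7 to 155 CPM and 371 CPM, and Prdx6, a peroxiredoxin, at 44.4 to 103 CPM and 244 CPM. Slc25a23, a mitochondrial carrier of ATP and phosphate, was at 175 to 339 CPM and 791 CPM. Ppp2r2a was at 113 to 166 CPM and 459 CPM. In all 25 genes the value in Insm1-KO replicate 3 lay above the 5 others. That held for 148 of the 150 members, as against 684 of the 2513 kept genes, and 42 members were at least 2 times the next highest library. The choice by deviation favours such values, so nothing is read from these counts. The 2 members not highest in Insm1-KO replicate 3 were Pip4k2b and Ccdc55, listed as Nsrp1 in RefSeq. Pip4k2b, a phosphoinositide kinase, was highest in Insm1-KO replicate 2 at 253 CPM. Ccdc55 was highest in Insm1-Het replicate 3 at 221 CPM.

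**Figure D3:**
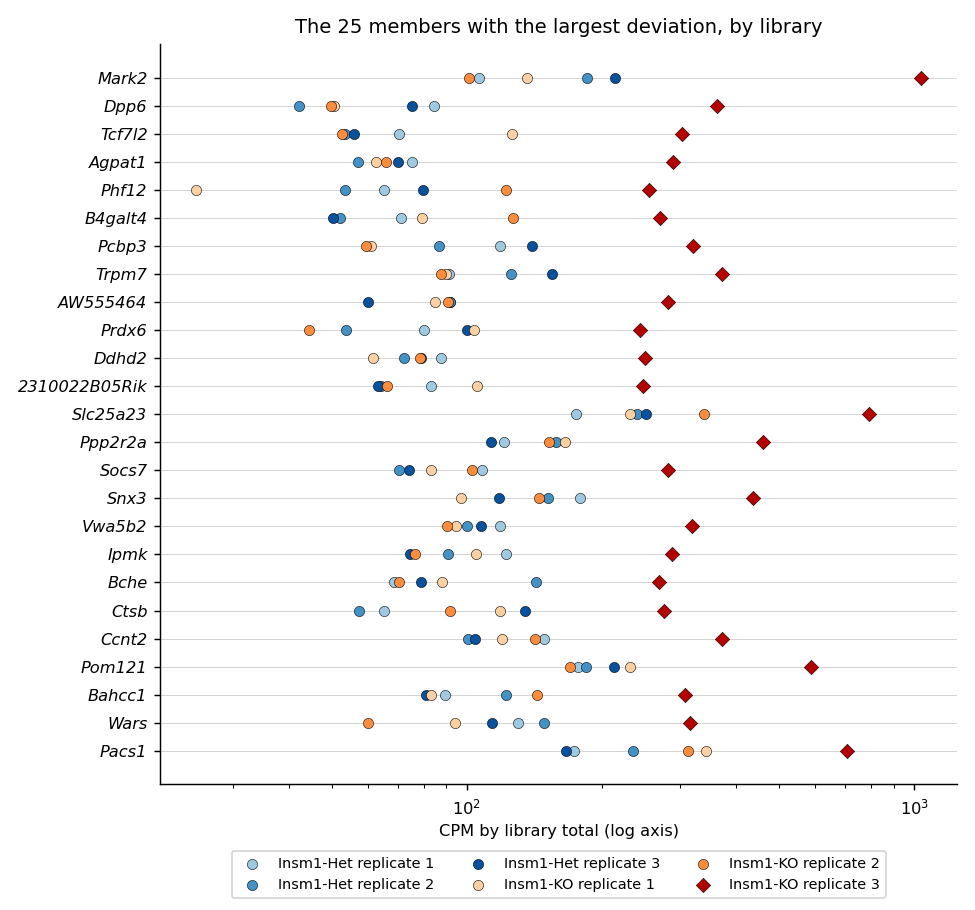
CPM by library total on a log axis for the 25 members with the largest deviation, 1 point per library. Insm1-KO replicate 3 (red diamonds) lies to the right of the other 5 libraries in every row, from 244 CPM for Prdx6 to 1037 CPM for Mark2.

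The most abundant members by their mean over the other 5 libraries differed by smaller ratios. Naca, a chaperone subunit at the ribosome, was at 424 to 777 CPM there and 1114 CPM in Insm1-KO replicate 3. Tgfb2, a transforming growth factor, was at 324 to 599 and 1029 CPM, and Ap1g1, a subunit of the AP-1 clathrin adaptor, at 299.5 to 545 and 870.2 CPM. Atp1b2, a sodium pump subunit, was at 331 to 475 and 889 CPM, and Xpr1, a phosphate exporter, at 257 to 383 and 807 CPM. Naca, Rbmx and Prdx6 have retrocopies of similar sequence, and how reads of such copies were assigned is not given. The whole group took 5.38% of the counts in Insm1-KO replicate 3 and 2.21% to 2.40% in the others, a gap that the choice of members favours.

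The limit of the choice falls in a dense part of the distribution. Just inside it were Stxbp4 (1.005), Smcr8 (0.9989) and Ccdc55 (0.9988), and just outside 2700078E11Rik (0.9985), Trak1 (0.9984) and Zfp207 (0.9914). The threshold on abundance also shaped the group: 44 members had a mean below 100 CPM over the other 5 libraries and entered through their level in Insm1-KO replicate 3, out of 88 such genes among all kept, so these 44 had to differ. The median over members of the mean in the other 5 libraries was 123 CPM, against 185 CPM over all kept genes. Among those 5 libraries the members' log2 values had a median SD of 0.34 per gene, against 0.28 over all kept genes. Both the lower level and the filter are part of how the members were chosen, so nothing is read from these values.

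By function the members were mixed. They were sorted by hand into broad roles after the values were seen. Transcription and chromatin had 27, signalling 25, and lipid, sugar or mitochondrial metabolism 18. RNA processing and protein synthesis had 14, membrane traffic and lysosomes 14, and the cytoskeleton, centrosome or adhesion 14. A further 14 fell under synapse, channels and neuronal surface, among them the channel Trpm7 and the pump subunit Atp1b2. Another 4 belong to the ubiquitin system, 2 to the nuclear pore and import, and 18 were not assigned. These counts have no background and no test. The median deviation of a role ran only from 1.07 for membrane traffic to 1.32 for the pair of nuclear transport genes, Pom121 and Ipo13.

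Lists of known genes held uneven shares of members. Of 40 lists, 25 held no member, and 41 members were on at least 1 list. Cell type lists covered 74 kept genes, of which 6 were members. None of the 4 kept genes on the outer hair cell list, the 5 on the inner hair cell list or the 26 on the hair bundle list was a member. The 16 outer hair cell genes with counts given summed to 915 CPM in Insm1-KO replicate 3, against 968 to 1187 CPM elsewhere. The 12 inner hair cell genes summed highest there, at 1940 CPM against 1325 to 1787 CPM. The 5 kept ones had a median deviation of -0.09, with 1 above 0 and 4 below, and 0.05 with TMM scaling. The greater epithelial ridge list, for the epithelium beside the hair cells, held none among 7 kept genes. Its summed level was 4583 CPM, against 4656 CPM in Insm1-Het replicate 3 and 3125 to 3341 CPM in the remaining libraries. These 7 genes had a median deviation of 0.35, with 6 above 0 and 1 below, and 0.48 with TMM scaling. All kept genes outside the members had -0.06 and 0.07. The melanocyte and stria list had 1 member, Atp1b2, among 3. The Schwann cell, mesenchyme, erythroid and spiral ganglion neuron lists held none of their 2, 3, 2 and 9 kept genes, and the endothelial and immune lists had no kept gene. The cytosolic ribosomal proteins (25 kept), the ubiquitin and proteasome list (54) and the dissociation stress list (13) also held none. For comparison, the members are 150 of the 2513 kept genes.

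The supporting cell list held the highest share, with 4 members among 11 kept genes. Notch1, the receptor of lateral inhibition, was at 123, 177 and 143 CPM in the Het replicates, 185 and 156 CPM in Insm1-KO replicates 1 and 2, and 343 CPM in replicate 3. Jag1, a Notch ligand of the prosensory domain and supporting cells, was at 215, 267 and 268 CPM in Het, 295 and 260.3 CPM in Insm1-KO replicates 1 and 2, and 525 CPM in replicate 3. Lgr5, an R-spondin receptor of supporting cells, was at 195, 129 and 173 CPM, then 219 and 197 CPM, and 363 CPM. Slitrk6 was at 224, 291 and 334 CPM, then 265 and 442 CPM, and 644 CPM. All 4 were highest in Insm1-KO replicate 3.

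The other genes of that list lay on both sides. The 7 kept genes that are not members had a median deviation of -0.06, with 3 above 0 and 4 below, against -0.06 over the 2363 kept genes outside the members. Prox1, a homeobox factor of supporting cells, was at 684 CPM against 395 to 567 CPM elsewhere, and Sox2, a prosensory factor, at 184 CPM against 113 to 170.4 CPM. Fgfr3 was lower at 199 CPM against 242 to 294 CPM, and Hey1, a Notch effector, at 98.8 CPM against 121 to 212 CPM. Hes5, another Notch effector, was at 21.3 CPM against 20 to 77.1 CPM. Gjb2, the gap junction protein connexin 26 of supporting cells, was at 33.7, 14.3 and 53.4 CPM in Het. It was at 7.99 and 6.49 CPM in Insm1-KO replicates 1 and 2 and 3.9 CPM in replicate 3. Both other Insm1-KO libraries were thus also below all Het libraries for Gjb2. With TMM scaling the median of these 7 genes was 0.07 with 5 above 0, against 0.07 over the kept genes outside the members, and Fgfr3 and Hey1 stayed below 0 at -0.25 and -0.54. The summed level of all 37 listed genes was 4386 CPM in Insm1-KO replicate 3 and 2864 to 3491 CPM in the other libraries, but this sum includes the 4 members, chosen for being high there. Without them it was 2511 CPM against 2001 to 2435 CPM. Of the 37 genes 3 had 0 counts there. The part of supporting cells in the members' levels was not tested. In bulk RNA more cells of a type and more RNA per cell cannot be told apart.

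The hair cell list had 1 member among 31 kept genes, Barhl1, a homeobox factor needed for hair cell survival. Barhl1 was at 185, 191 and 119.7 CPM in Het, 202 and 220.1 CPM in Insm1-KO replicates 1 and 2, and 398 CPM in replicate 3, with both other Insm1-KO libraries also above all Het libraries. The other 30 kept genes of the list had a median deviation of -0.02, with 14 above 0 and 16 below, and 0.11 with TMM scaling. For this list and those below, the values to compare are -0.06 and 0.07, those of all kept genes outside the members. Atoh1, the factor that starts hair cell differentiation, was at 803 CPM in Insm1-KO replicate 3, short of the limit for members. It was at 461, 409.5 and 458 CPM in Het and 606 and 557 CPM in Insm1-KO replicates 1 and 2. For Atoh1, too, both other Insm1-KO libraries lay above all Het libraries. Jag2, the Notch ligand that hair cells present, was at 148 CPM against 307 to 452 CPM.

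The synapse and exocytosis list held 4 members among 24 kept genes, of which 3 are described. Cacnb2, the calcium channel subunit that partners Cav1.3 in hair cells, was at 313, 319 and 223 CPM in Het, 236 and 194 CPM in Insm1-KO replicates 1 and 2, and 553 CPM in replicate 3. Cplx2, a complexin, was at 139, 95.7 and 121 CPM, then 57.2 and 115 CPM, and 214 CPM. Bsn, bassoon, the scaffold that anchors synaptic ribbons, was at 48.9, 110.2 and 84.8 CPM, then 115 and 96.6 CPM, and 178 CPM. Cacna1d, the Cav1.3 channel itself, was at 495 CPM against 266 to 411 CPM without reaching the limit.

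Other genes of the same list were lowest in that library. Nrxn2, a presynaptic adhesion protein, was at 44.8 CPM against 103 to 139 CPM, Cadps2, a granule priming factor, at 109 CPM against 155 to 319 CPM, and Erc1, an active zone protein, at 225 CPM against 312 to 482 CPM. The 20 kept genes of the list that are not members had a median deviation of 0.11, with 11 above 0 and 9 below, and 0.24 with TMM scaling. Over all kept genes outside the members these were -0.06 and 0.07. Atoh1, Jag2, Prox1, Sox2, Fgfr3, Hey1, Hes5, Gjb2, Cacna1d, Nrxn2, Cadps2 and Erc1 are not members and were chosen after their values were seen.

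**Figure D4:**
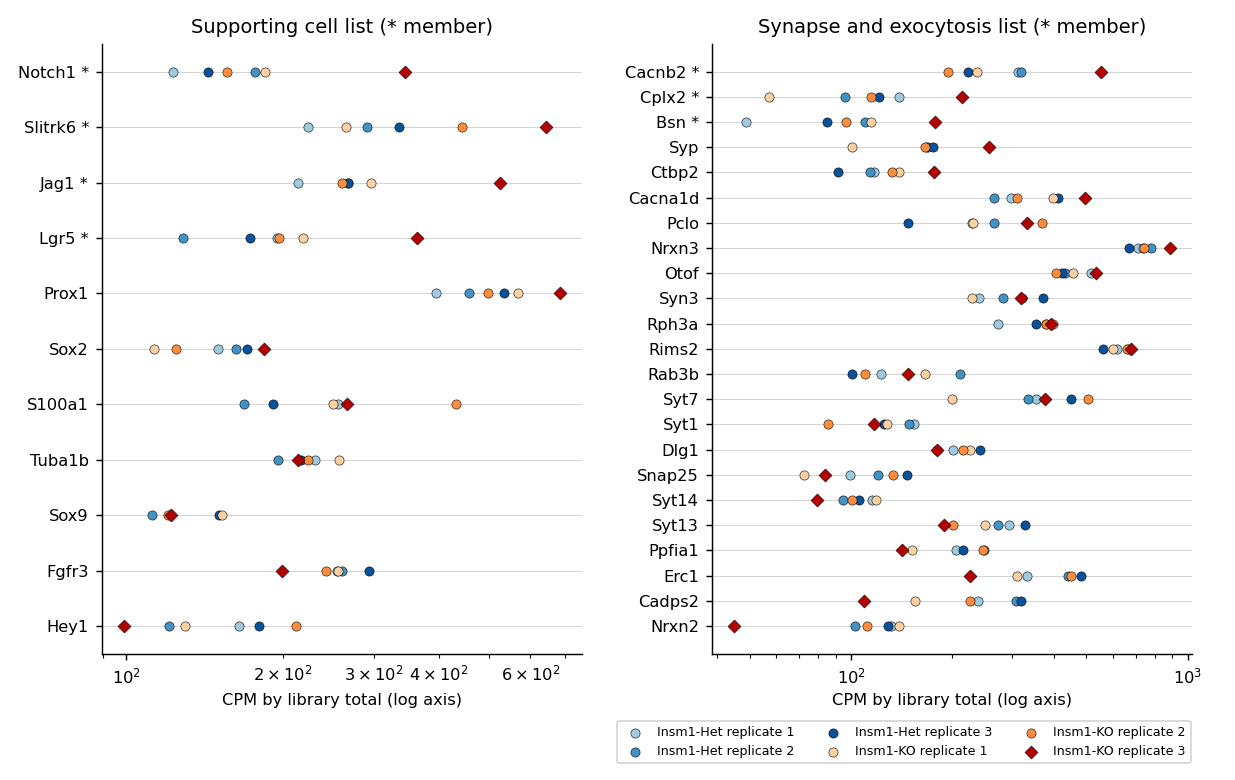
CPM on a log axis for the kept genes of the supporting cell list (left, 11 genes) and the synapse and exocytosis list (right, 23 of 24 genes), ordered by deviation, 1 point per library, with members starred. Insm1-KO replicate 3 (red diamonds) is highest for the starred genes, such as Notch1 at 343 CPM, and lowest for genes such as Hey1 at 98.8 CPM and Nrxn2 at 44.8 CPM.

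Among signalling genes, the kinase and phosphatase list held 7 members among 62 kept genes. Apart from Mark2 and Ppp2r2a these included Fgfr1, Ppp2r1a, Map2k4 and Mapk3. Fgfr1, a receptor needed for the cochlear sensory epithelium, was at 87.8 to 120.3 CPM in the other 5 libraries and 244 CPM in Insm1-KO replicate 3. The 55 kept genes of the list outside the members had a median deviation of -0.12, with 22 above 0 and 33 below, and 0.02 with TMM scaling. The ion channel and transporter list held 3 members among 19 kept genes, Cacnb2, Atp1b2 and Trpm7. Its other 16 had a median deviation of -0.22, with 4 above 0 and 12 below, and -0.08 with TMM scaling. Both lists are set against -0.06 and 0.07 over all kept genes outside the members.

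The chromatin list held 3 members among 67 kept genes. One was Chd9, a helicase of chromatin remodelling, at 134 to 171 CPM elsewhere and 308 CPM in Insm1-KO replicate 3. The 64 kept genes of the list outside the members had a median deviation of 0.13, with 39 above 0 and 25 below, and 0.27 with TMM scaling. All kept genes outside the members had -0.06 and 0.07. Zfp238, listed as Zbtb18 in RefSeq and a repressor of neuronal differentiation genes, was at 229 to 351 CPM and 758 CPM. Zfp687 was the other member among 42 kept zinc finger genes.

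Of traffic genes, Snx3, a sorting nexin of endosomes, was at 97.0 to 179 CPM and 436 CPM in Insm1-KO replicate 3, and Ap3d1, a subunit of the AP-3 adaptor, at 140.2 to 183 CPM and 455 CPM. They were the 2 members among 43 kept genes of the traffic list. Its other 41 kept genes had a median deviation of -0.11, and 0.03 with TMM scaling, against -0.06 and 0.07 over all kept genes outside the members. Further single members came from other lists: Cdh2, N-cadherin, at 159 to 285 and 432 CPM, Bcl2l1, an inhibitor of apoptosis, at 90.9 to 135 and 277 CPM, Cep350, a centrosome protein, at 124 to 149.8 and 325 CPM, and Atp5g3, a subunit of ATP synthase, at 81.9 to 157 and 259 CPM.

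Whether the members also differed between genotypes was examined in the 5 libraries other than Insm1-KO replicate 3, whose differences among themselves did not choose the members. Insm1-KO replicates 1 and 2 were compared with the 3 Insm1-Het replicates by the quasi-likelihood test of edgeR over 12401 genes. No member passed at a Benjamini-Hochberg adjusted p of 0.05, and none of the 12401 genes did (0.00%). DESeq2 called 0 members and 33 genes over all. At an unadjusted p under 0.05, 5 members were higher in Insm1-KO (3.33%, against 2.44% of all genes) and 5 were lower (3.33%, against 3.06%). The median log2 fold change of the members was 0.09, with 87 above 0 and 63 below. Over the 2513 kept genes it was 0.01, with 1294 above 0 and 1219 below.

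The 5 that were higher at that level were Cpped1, Pacs1, Cux1, Senp5 and B4galt4. Cpped1, a phosphatase, was at 83.4, 75.5 and 103 CPM in Het and 150.2 and 192 CPM in Insm1-KO replicates 1 and 2, with a log2 fold change of 1.01 (SE 0.30, edgeR adjusted p = 0.816). Pacs1, a sorting protein of the trans-Golgi network, was at 174, 236 and 167 CPM in Het and 343 and 313 CPM, a log2 fold change of 0.80 (SE 0.24, edgeR adjusted p = 0.816). The 5 that were lower were Fam53c, Tmod1, Pcbp3, Thada and Wars. Fam53c was at 179.8, 271 and 118 CPM in Het and 99.5 and 74.0 CPM, a log2 fold change of -1.10 (SE 0.36, edgeR adjusted p = 0.828), and Tmod1, a capping protein of actin filaments, had -0.80 (SE 0.31, edgeR adjusted p = 0.879). For Fam53c the value in Insm1-KO replicate 3, 382 CPM, was the highest of all, opposite in direction to the other Insm1-KO libraries. These 10 genes were named after their values were seen.

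Without regard to a test, both Insm1-KO replicates 1 and 2 lay above all Het libraries for 19 members (12.7%) and below all of them for 18 (12%). Over the 2513 kept genes the same held for 9.99% and 11.8%. The members' shares were near those of all kept genes. The 2 members with the largest deviation pointed down: Mark2 had a log2 fold change of -0.48 (SE 0.34, edgeR adjusted p = 0.954) and Dpp6 of -0.39 (SE 0.45, edgeR adjusted p = 0.993).

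**Figure D5:**
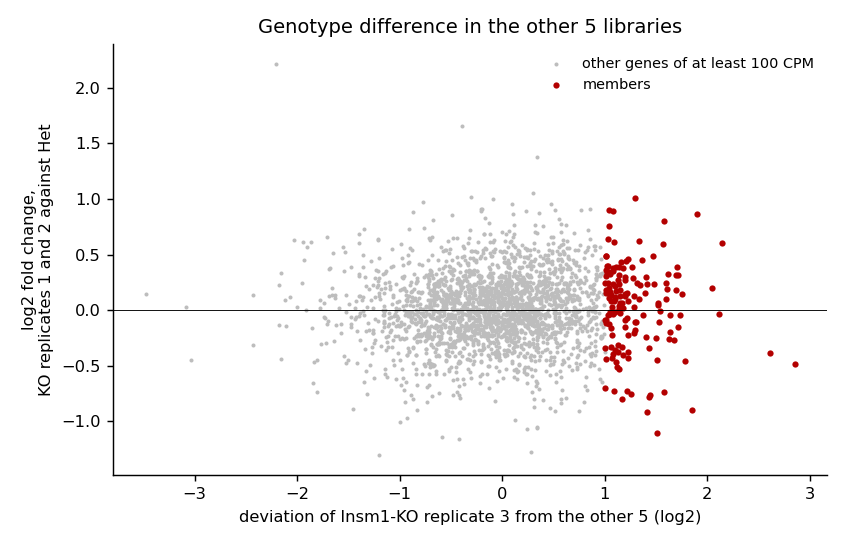
Log2 fold change of Insm1-KO replicates 1 and 2 against the 3 Insm1-Het replicates (y axis) against the deviation of Insm1-KO replicate 3 (x axis), for the 2513 kept genes, with the 150 members in red. Members lie on both sides of 0, 87 above and 63 below, as do all kept genes, 1294 above and 1219 below.

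With all 6 libraries the genotype contrast includes the values that chose the members, and nothing is read from it. In that fit 149 of the 150 members had a log2 fold change above 0, with a median of 0.65 against 0.05 over the kept genes. None passed at a Benjamini-Hochberg adjusted p of 0.05 in edgeR, nor did any of the 11714 genes tested (0.00%), and the smallest adjusted p of a member was 0.896. At an unadjusted p under 0.05, 41 members were higher in Insm1-KO, where 3.19% of all genes were, and 0 were lower, where 2.15% were. DESeq2 called 2 members, Cpped1 and Pacs1, and 26 genes over all. For Mark2 the log2 fold change was 1.45 with all libraries (SE 0.68, edgeR adjusted p = 0.930) and -0.48 without Insm1-KO replicate 3.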

How the data were processed

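The 6 libraries held RNA depleted of ribosomal RNA from sorted outer hair cells, amplified from random primers and read as pairs of 100 bases, per the labels' protocols. The authors deposited raw counts per gene symbol, 1 file for each library. The submitters' processing notes name Trimmomatic, STAR, HTSeq and the build GRCm38 (mm10). No source used here states versions, annotation, strand setting or the handling of multi-mapped reads. From these counts, CPM, deviations and members were computed as the report states, with a pseudocount of 1. Genotypes were compared with edgeR 4.0.16 (TMM, filterByExpr with a minimum count of 10 and total of 15, no covariates) in R 4.3.3, and with DESeq2 1.42.0 as an alternative. The edgeR script was tested on simulated counts. The members and lists were chosen with earlier results of these data known. Genes to be named were the first 25 by deviation, the 5 most abundant elsewhere, 3 on each side of the limit, members on cell type lists, up to 4 per other list and up to 10 past the threshold without Insm1-KO replicate 3. Others are examples chosen after their values were seen. Library totals were 7705177 to 12427039 counts. Alternatives were other scalings, pseudocounts, filters, reference libraries, a replicate block and leaving out each library. A few members are counted but not reported by name here.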

Additional observations from a re-analysis of the deposited data

How the results depend on the processing

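Under the 2 other scalings and the 2 other pseudocounts, 149 of the 150 members were chosen again. Leaving out 1 of the other 5 libraries kept 131 to 141, the median in place of the mean 129, and comparison with the other Insm1-KO libraries alone 108. The abundance threshold set which genes could be chosen. At a mean of at least 200 CPM 45 members were eligible and 45 were chosen again, and with 100 CPM over the other 5 libraries 106 were eligible and 106 chosen. At 50 CPM all 150 were eligible and 44 were chosen again among 4451 genes. Mark2 ranked first in all of these settings except at 50 CPM, where Brip1, a gene of the inner hair cell list, did. The chosen genes had a median GC content 1.84 to 3.47 percentage points above that of the 2513 kept genes in each setting where it could be computed. At 50 CPM too few chosen genes had a value. The 2513 genes served as reference in every setting, also at 200 CPM, where 1131 genes were eligible. The settings share many members, so they are not independent.

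From all libraries, DESeq2 called 26 genes and 2 members, and edgeR with no filter called 67 genes and 7 members. With the replicate block 1 gene and 0 members were called. These fits include the values that chose the members, so nothing is read from their member counts. The filter left 11714 genes with all libraries and 12401 without Insm1-KO replicate 3, and with no filter every gene with a count was tested. Without Insm1-KO replicate 3, DESeq2 called 33 genes, no filter 38 and the replicate block 4, each with 0 members. Leaving out 1 more library gave 0 to 1 genes and 0 members, and with all libraries at the start it gave 0 genes. The cause of these differences was not tested. Where 1 Insm1-KO library remained, it was assumed to vary like the others. Same-numbered libraries had correlations of deviations from their group means of 0.01, 0.01 and 0.01, so the numbers were not taken to pair them.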
